A study of Homo sapiens with 18 samples.

Results

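The 48 genes described here are histone genes that the deposited table lists under HIST cluster names, the older symbols of the replication-dependent histone genes. They were taken by name (a symbol of HIST, a cluster number from 1 to 4 and H) and by level: a mean of at least 5 normalized counts over the 18 libraries. Of 89 rows with such a name, 48 reached that mean and 41 did not. The table holds 55765 rows, of which 17903 reached the same mean and were tested. The level chose the genes, so overall levels below are a description, while differences between groups were not used in choosing them. Members comprised 18 H2B, 10 H2A, 8 H3, 8 H4 and 4 linker H1 genes, and 40 of the 48 carry the name of the large HIST1 cluster.

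The RNA came from G401, an established cell line from a malignant rhabdoid tumour. WT is an isogenic control line that was edited with CRISPR/Cas9 at the AAVS1 safe harbour site and kept RB1. E1 and F2 are 2 independent clones in which both RB1 alleles were disrupted, so each stands for 1 clone and clone differences cannot be told apart from effects of RB1. Each line was exposed for 11 days to 10 µM tazemetostat, a drug that blocks EZH2, the enzyme that methylates histone H3 at silenced genes, or to DMSO alone at the same volume, with 3 biological replicates in each of the 6 groups. Poly(A)-selected RNA was sequenced from stranded libraries. Recovered library totals ranged from 25709489 to 39314860 reads.

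Histones package DNA into nucleosomes: H2A, H2B, H3 and H4 form the core, and H1 binds the linker between cores. Most genes of the HIST clusters are switched on as DNA is copied, through the coactivator NPAT, and their mRNAs end in a short stem-loop that the protein SLBP binds, with no poly(A) tail. Some of them can also be cut and tailed at a poly(A) signal further downstream, a form known from cells that have left the cell cycle. Poly(A) selection keeps tailed RNA, so the values below describe mainly transcripts that carried a tail and say little of the total histone mRNA in these cells.

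The stem-loop is shown because it marks the regular 3′ end of these mRNAs. The members' GENCODE 29 transcripts were searched, on the transcript's own strand, for the histone stem-loop: a stem of 6 paired bases that opens with GG and ends in CT, around a loop of 4 bases with TT at its centre. It was found in 21 of 48 members, in 4 forms. The stem is in capitals and the loop in lower case, and each line names the form by members that hold it.
HIST1H2AC, HIST2H2BE, HIST1H2BG, HIST1H3H and 9 others: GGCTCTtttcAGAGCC
HIST1H2BC, HIST1H2BD, HIST1H2BF and HIST1H3G: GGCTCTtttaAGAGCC
HIST1H4H, HIST1H4E and HIST4H4: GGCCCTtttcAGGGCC
HIST1H4I: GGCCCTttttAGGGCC
In 17 of these 21 members the annotated transcript ran at least 100 bases beyond the stem-loop, for example by 1729 bases in HIST2H2BE, 1655 in HIST1H4H and 116 in HIST1H2BC. The remaining members' gene models had no match, and many of those models stop near the coding end, such as that of HIST1H2BK with 381 bases. No match there says only that these letters are not in the model.

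Promoters are shown for 5 members whose levels the results turn on. The windows hold the 250 bases before each start in RefSeq's GRCh38.p14 table, which differs from the authors' build, and 40 of the 48 members matched it. Capitals mark, on either strand, the octamer ATTTGCAT (known as a binding site of POU2F1 in H2B promoters), the CCAAT box, the TATA box letters TATAAA and the E2F-type letters TTTGGCGC, TTTCCCGC, TTTGCCGC or TTTCGCGC. Adjacent or overlapping matches run together.
HIST1H2BC (H2BC4), chr6:26123927-26124176, minus strand: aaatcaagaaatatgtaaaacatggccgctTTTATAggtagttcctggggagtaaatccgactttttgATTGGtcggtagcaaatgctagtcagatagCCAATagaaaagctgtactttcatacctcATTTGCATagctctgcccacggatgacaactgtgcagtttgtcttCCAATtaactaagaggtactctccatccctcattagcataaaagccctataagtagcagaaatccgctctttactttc
HIST2H2BE (H2BC21), chr1:149886683-149886932, minus strand: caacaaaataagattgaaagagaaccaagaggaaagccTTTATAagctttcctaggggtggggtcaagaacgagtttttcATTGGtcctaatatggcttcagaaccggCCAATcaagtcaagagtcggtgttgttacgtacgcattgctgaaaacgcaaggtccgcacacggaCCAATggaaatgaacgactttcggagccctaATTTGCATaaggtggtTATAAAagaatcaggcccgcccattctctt
HIST1H2BJ (H2BC11), chr6:27132796-27133045, minus strand: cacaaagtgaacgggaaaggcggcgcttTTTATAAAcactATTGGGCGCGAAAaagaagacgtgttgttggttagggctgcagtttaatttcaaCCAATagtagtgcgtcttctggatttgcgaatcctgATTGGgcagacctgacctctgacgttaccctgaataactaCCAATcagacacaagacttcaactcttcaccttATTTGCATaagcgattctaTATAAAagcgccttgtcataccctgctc
HIST1H2BK (H2BC12), chr6:27146859-27147108, minus strand: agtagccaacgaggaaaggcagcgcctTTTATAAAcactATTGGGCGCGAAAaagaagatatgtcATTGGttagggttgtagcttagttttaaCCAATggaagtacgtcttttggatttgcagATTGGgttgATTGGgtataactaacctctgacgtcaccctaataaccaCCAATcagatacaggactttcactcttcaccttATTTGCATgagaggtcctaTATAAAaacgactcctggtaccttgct
HIST1H4H (H4C8), chr6:26285535-26285784, minus strand: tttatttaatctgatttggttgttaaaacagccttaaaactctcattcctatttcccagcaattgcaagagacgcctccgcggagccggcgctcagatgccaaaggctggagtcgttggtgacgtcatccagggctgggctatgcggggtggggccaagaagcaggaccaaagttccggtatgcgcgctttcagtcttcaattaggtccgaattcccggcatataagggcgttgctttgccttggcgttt
The octamer was present in 12 of 16 H2B promoters and 6 of 9 H2A promoters, against 1 of 5 for H3 and 0 of 4 for H1 and 0 of 6 for H4. Over all 35116 promoters of the same length it was present in 1.63%. CCAAT was found in 35 of the 40 members (all promoters, 32%), TATAAA in 24 (10.7%) and the E2F-type letters in 9 (2.79%). Several H2A and H2B genes start on either side of one short stretch of DNA, so their windows share sequence and are not independent. The HIST1H4H window held none of the 4 motifs.

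Just inside the floor stood HIST1H4C (mean 6.0) and HIST1H2AJ (5.80), and just outside it HIST1H2AM (4.98) and HIST1H4B (4.72). Only 11 members had a mean of at least 100 normalized counts, and 12 lay between 5 and 10. Of the 41 rows below the floor, 19 were at 0 in every library. These include HIST2H2AA3 with HIST2H2AA4, HIST2H4A with HIST2H4B and HIST2H3A with HIST2H3C, pairs of near-identical copies named after their values were seen. Reads of such copies, and of the coding parts of other histone genes, may be split or dropped in counting, so single values are uncertain. In GENCODE 29, 10 of 48 members overlap another gene, some of them on both strands. On the opposite strand 7 do so, among them HIST1H2BD, HIST1H2BE and HIST1H2BN, and the sources used here do not give the strand setting of the counting. On the same strand 6 do so, among them HIST1H3D, HIST1H2AL and HIST1H2BN, and no strand setting would separate these.

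The targeted gene, RB1, measured 2828, 2687 and 2565 normalized counts in WT under DMSO, 658, 505 and 780.3 in E1 and 861, 804 and 852 in F2, lower in both clones (log2 change -2.08 and -1.68) but still read. Under tazemetostat it measured 2517, 2606 and 2300.4, 939, 947 and 1045 and 945, 932 and 936, in the same order of lines. SMARCB1, the gene lost in rhabdoid tumours, had 0 reads in all 18 libraries. Of 10 markers of blood, endothelial, epithelial and stromal cells, 4 reached the floor (CDH5, EPCAM, CDH1 and PDGFRA), while PTPRC and CD3E were at 0 in most libraries. Their summed level lay between 1600 and 3914 normalized counts. The first DMSO library of E1 stood apart in 12 RNAs that carry no poly(A) tail: they summed to 4637 normalized counts there and to between 551 and 1587 in the other libraries. RN7SK reached 2496 and RMRP 1106 in it. Results that rest on this library are given with and without it.

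Summed over the 48 genes, WT libraries held 7366, 7072 and 7068 normalized counts under DMSO and 13624, 13281 and 13144 under tazemetostat. In E1 the sums were 9848, 10518 and 8559 under DMSO and 8207, 8370.5 and 8712 under tazemetostat, and in F2 they were 4820.0, 4832 and 4828 and then 7656, 6919 and 7649. The tazemetostat libraries of WT and of F2 were therefore all above their DMSO libraries, and in E1 the 3 tazemetostat sums spanned 8207 to 8712, with 2 of its DMSO sums above them. The member with the most reads, HIST1H2BK, weighed heavily in these totals. Its group mean moved with tazemetostat from 2833 to 4523 (WT), from 4402 to 3796 (E1) and from 1901 to 3389 (F2). The totals thus describe the most-read genes more than the set as a whole. The summed markers of other cell types were lower under tazemetostat in all 3 lines. For WT they stood at 3755, 3765 and 3672 and then 2328, 2274 and 2007, a sum carried by PDGFRA. Single markers went both ways: in WT CDH5 rose (2.71) and PDGFRA (-0.93), EPCAM (-0.29) and CDH1 (0.45) did not pass, while in E1 CDH5, at 0 reads in its DMSO libraries, and CDH1 (3.17) rose and PDGFRA (-1.18) and EPCAM (-1.37) fell. In F2 CDH5, again from 0 reads, rose and EPCAM fell (-1.14). The part of these markers in the histone values was not tested. A bulk value cannot tell fewer cells with an RNA from less of it per cell.

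In WT cells tazemetostat raised a set of H2B, H2A, H3 and H4 genes and lowered a set of mostly low-count members. HIST1H2BC, which encodes a core H2B histone, rose most, from a mean of 148 to 605 normalized counts. In all 10 members rose: HIST1H2BC, HIST2H2BE, HIST1H2BD, HIST1H2BG and HIST1H2BJ (H2B), HIST3H2A, HIST1H2AC and HIST1H2AE (H2A), HIST1H3D (H3) and HIST1H4H (H4). A further 6 fell: HIST1H4A, HIST1H3J, HIST1H2BI, HIST1H2AL, HIST1H2BM and HIST1H2BO. A gene counts as risen or fallen where limma's adjusted p was under 0.05 and the log2 change, on the log2(value + 1) scale, was at least 1 in size. The 10 risen members are 20.8% of 48 against 15.6% of all tested genes, and the 6 fallen are 12.5% against 7.19%. The share that rose is not far from that of genes at large. With each library of the series left out in turn, 9 of the risen and 2 of the fallen (HIST1H4A and HIST1H2AL) passed every time. The members' median log2 change was 0.29, and that of all tested genes 0.03.

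**Figure D1:**
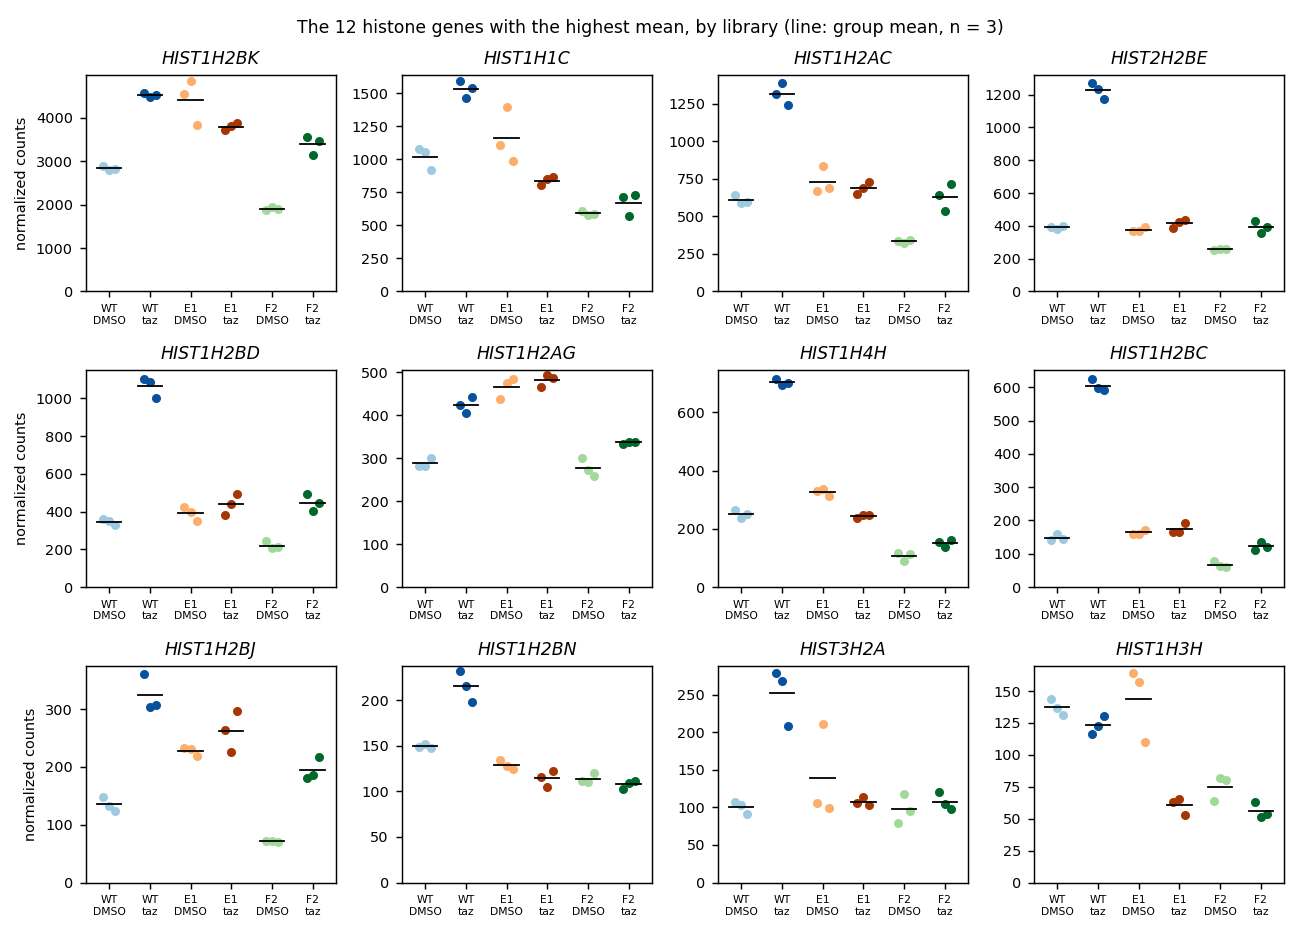
Normalized counts (vertical axes, from 0, not scaled to gene length) of the 12 histone genes with the highest mean count, with 3 points per group for the libraries and a line for the group mean; taz is tazemetostat. In HIST2H2BE, HIST1H2BD, HIST1H4H and HIST1H2BC the WT tazemetostat libraries stand above the libraries of every other group.

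Among the H2B genes, HIST1H2BC measured 142, 158 and 145 in WT under DMSO and 624, 597 and 594 under tazemetostat, a log2 change of 2.02 ± 0.12 (SE, n = 3 per group; limma adjusted p = 2.87e-11). In E1 it measured 161, 159 and 172 and then 165, 166 and 192, and in F2 78.9, 62.2 and 59.5 and then 113, 135 and 120.2. The WT tazemetostat libraries were the 3 highest of the 18, the E1 groups overlapped, and the F2 groups were apart at lower levels. HIST2H2BE, an H2B gene of the cluster on chromosome 1 with a long annotated 3′ end, measured 394, 378 and 401.2 in WT and 1271, 1234 and 1171 with tazemetostat (1.64 ± 0.08, adjusted p = 1.84e-12). The corresponding E1 values were 366, 369 and 393 and 385, 424 and 435, and the F2 values 253, 261 and 256 and 431, 357 and 393. Again WT with tazemetostat was separate from everything else, while the E1 groups overlapped.

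HIST1H2BD, a further H2B gene, measured 361, 349 and 331 in WT and 1106, 1086 and 1001 with tazemetostat (1.61 ± 0.11). HIST1H2BG went from 83.9, 79.2 and 71.0 to 226, 206 and 204 (1.43 ± 0.20), and HIST1H2BJ from 148, 133 and 124 to 361, 303 and 308 (1.25 ± 0.12). In each of these 3 genes the WT groups did not overlap. HIST1H2BK, with the most reads of all 48, measured 2887, 2795 and 2817 and then 4571, 4469.8 and 4529. Its log2 change of 0.67 ± 0.07 had an adjusted p of 1.02e-07 in limma but was under the size limit, although the groups were far apart.

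H2A genes pair with H2B in the nucleosome. HIST1H2AC measured 640.2, 592 and 594 in WT and 1319, 1393 and 1240.1 with tazemetostat (1.11 ± 0.10, adjusted p = 1.51e-08), with no overlap. With every library scaled to the same total its log2 change was 0.96 and under the size limit. HIST3H2A, from the small cluster 3, went from 107, 103 and 91.8 to 279, 268 and 208 (1.31 ± 0.22), also without overlap. HIST1H2AE had a log2 change of 1.02 ± 0.22 in limma, but edgeR's test on recovered reads (0.99) put it just under the size limit, as did leaving out the second DMSO (0.93) or tazemetostat (0.94) library of WT. HIST1H2AG measured 282, 283 and 301 and then 424, 404 and 442, a change of 0.55 ± 0.08 that was under the limit with groups apart.

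Of the H4 genes, HIST1H4H measured 265, 237 and 249.8 in WT and 714, 696 and 702 with tazemetostat (1.49 ± 0.10, adjusted p = 2.89e-10). The tazemetostat libraries agreed closely and stood far above DMSO. HIST4H4, a single H4 gene outside the large clusters, overlapped between the WT groups (0.31 ± 0.23). Of the H3 genes, HIST1H3D went from 13.1, 18.8 and 24.6 to 44.3, 60.8 and 50.5 (1.44 ± 0.28, adjusted p = 0.000183), again without overlap. HIST1H3H measured 144, 137 and 132 and then 116, 122.5 and 131, a small difference (-0.16 ± 0.16) that did not pass, and HIST1H3E had a log2 change of 0.48 ± 0.19, under the size limit.

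The linker histone genes did not pass in WT. HIST1H1C, which encodes a widespread H1, measured 1079.6, 1060.3 and 919.8 and then 1592, 1467 and 1541 (0.59 ± 0.11, adjusted p = 0.000133), apart but under the size limit. HIST1H1E (-0.80 ± 0.41) and HIST1H1B (-1.22 ± 0.60) rested on few reads and missed the adjusted p. HIST1H4A fell from 11.4, 10.4 and 8.52 to 0, 1.87 and 3.69 normalized counts (-2.21 ± 0.40, adjusted p = 0.000111), and HIST1H3J from 8.73, 8.48 and 7.57 to 4.93, 0.935 and 1.23 (-1.65 ± 0.60). Both had separate groups at levels of a few reads. The calls for HIST1H3J, HIST1H2BM and HIST1H2BI each ended when any of several single libraries was left out, with limma adjusted p of up to 0.0971 for HIST1H3J, 0.0977 for HIST1H2BM and 0.301 for HIST1H2BI. HIST1H2BI also had overlapping groups and was not called by edgeR's test on recovered reads. HIST1H2BO was under the size limit without the third tazemetostat library (-0.82).

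In E1, an RB1-disrupted clone, none of the 48 members rose under tazemetostat and 5 fell: HIST1H3H, HIST1H2AI, HIST1H4A, HIST1H2BE and HIST1H3J. That is 0% against 12.4% of all tested genes that rose, and 10.4% against 4.01% that fell. With no adjustment or size limit, limma gave p under 0.05 for 2 members higher and 13 lower, and edgeR and DESeq2 also called 0 risen. The shares of all tested genes at an unadjusted p, or called by edgeR or DESeq2, were not computed here or below. Such counts of members or listed genes therefore have no background beside them. Adjusted and with no size limit, limma had 2 members higher and 9 lower, against 4739 and 3275 of all 17903 tested genes. The members' median log2 change was -0.23 (all tested genes, 0.03). HIST1H3H measured 164, 157 and 110.1 under DMSO and 62.8, 65.8 and 52.8 under tazemetostat (-1.22 ± 0.16, adjusted p = 3.72e-06). HIST1H2AI measured 86.6, 96.5 and 62.3 and then 35.1, 28.0 and 40.5 (-1.21 ± 0.20, adjusted p = 5.22e-05). Both genes encode core histones, and in both the E1 groups were separate.

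Without the first DMSO library of E1, 2 of the 5 still passed, HIST1H3H (-1.12) and HIST1H2AI (-1.16), against 16.1% of all tested genes in either direction, and the median was -0.06. HIST1H4A then missed the threshold (-1.20, limma adjusted p = 0.0506), as did HIST1H3J (-1.40, 0.118) and HIST1H2BE (-0.72, 0.18). Without the first tazemetostat library of E1, the log2 change of HIST1H3J was -0.61 (adjusted p = 0.251). HIST1H3H and HIST1H2AI were the 2 genes that passed whichever library was left out. HIST1H2BE overlapped between the groups in any case, at 15.2, 8.69 and 2.92 and 2.13, 1.93 and 4.71. Other well-covered genes stayed under the limit in E1. HIST1H2BK measured 4535, 4844 and 3825 and then 3705, 3817 and 3867, with overlap (-0.21 ± 0.07). HIST1H4H measured 329, 337 and 314 and then 236, 249 and 249 (-0.41 ± 0.10), lower in all tazemetostat libraries. HIST1H1C (-0.46 ± 0.11) was also lower without overlap, and HIST4H4 (0.87 ± 0.23) higher without overlap.

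In F2, the other clone, 5 members rose under tazemetostat and none fell. The risen genes were HIST1H2BJ and HIST1H2BD (H2B), HIST1H3G and HIST1H3D (H3), and HIST1H2APS4, an H2A pseudogene. These are 10.4% of members against 14.5% of all tested genes, a share near or below that of genes at large, and 0% against 3.88% fell. Unadjusted limma p values were under 0.05 for 14 members higher and 4 lower, and among falls edgeR called 1 and DESeq2 0. Adjusted and with no size limit, limma had 13 members higher and 2 lower, against 5129 and 3831 of all 17903 tested genes. The median was 0.16 (all tested genes, 0.03). HIST1H2BJ, HIST1H3G and HIST1H2APS4 passed whichever library was left out. HIST1H2BD was under the size limit without the first tazemetostat library of F2 (0.95). It was also under it without the second (0.98) or, narrowly, the third (1.00 when rounded) DMSO library of F2. HIST1H3D was under the limit without the second tazemetostat library (0.87). HIST1H2BJ measured 71.7, 72.6 and 70.4 and then 182, 187 and 216 (1.43 ± 0.12, limma adjusted p = 5.15e-09). Its groups were widely separate. HIST1H2BD measured 242, 204 and 209.9 and then 494, 402 and 445 (1.03 ± 0.11).

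HIST1H3G measured 14.3, 20.7 and 15.8 and then 42.7, 38.4 and 37.0 in F2 (1.18 ± 0.18). HIST1H3D was low, at 6.15, 8.30 and 7.28 and then 17.5, 25.2 and 11.1 (1.14 ± 0.28), and HIST1H2APS4 measured 5.12, 4.15 and 3.64 and then 13.6, 11.1 and 13.9 (1.39 ± 0.24). All 3 had groups apart. HIST1H2BK measured 1876, 1937 and 1891 and then 3549, 3148 and 3471, a change of 0.83 ± 0.07 (adjusted p = 6.69e-09) under the size limit. HIST1H2AC (0.90 ± 0.10), HIST1H2BC (0.87 ± 0.12) and HIST2H2BE (0.61 ± 0.08) were also higher without overlap and under the limit.

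The design asks whether lines with disrupted RB1 respond to the drug as WT does, and the response itself was compared between lines (the change in a clone minus the change in WT). For 15 members the log2 change in E1 lay below that in WT past the threshold, and for none above it. They were HIST1H3D, HIST1H2BC, HIST1H4H, HIST1H2BG, HIST3H2A, HIST2H2BE, HIST1H2BD, HIST1H2AE, HIST1H2BF, HIST1H2AC, HIST1H4E, HIST1H3H, HIST1H2BJ, HIST1H1C and HIST1H2AI, with members of all 5 families. The 15 are 31.2% of the 48 genes against 5.4% of all tested genes, and 0% against 4.73% in the other direction. Without adjustment or a size limit 20 members were lower and 0 higher at p under 0.05 in limma, and edgeR and DESeq2 each called 15 lower and 0 higher. Adjusted and with no size limit, limma had 19 members lower and 0 higher, against 3025 and 2803 of all 17903 tested genes. The median difference was -0.33 over members and 0.01 over all tested genes. Both clone responses are set against the same WT libraries, so the E1 and F2 differences are not independent.

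**Figure D2:**
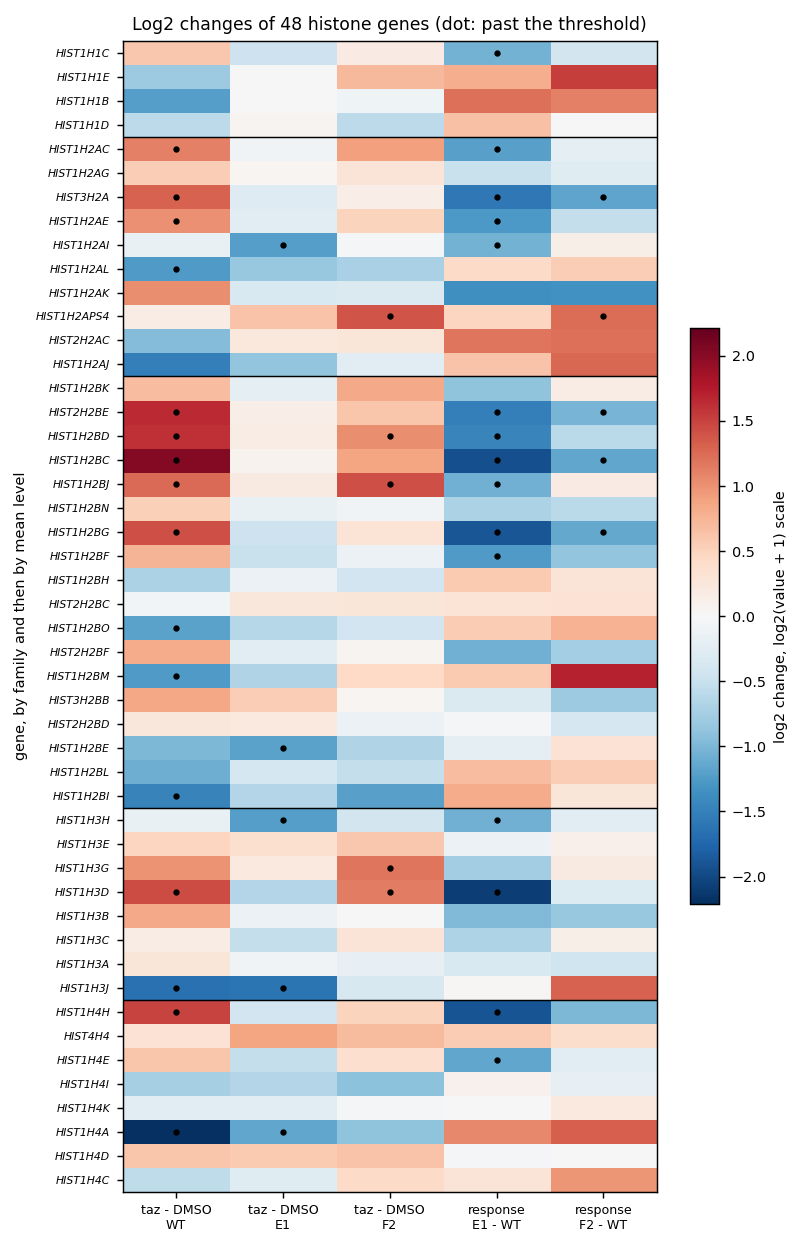
Log2 changes (colour, log2(value + 1) scale) of the 48 genes, ordered by family and then by mean count, for tazemetostat against DMSO in WT, E1 and F2 and for each clone's response minus that of WT; a dot marks a gene past the threshold. The column of E1 minus WT holds 15 dots, all lower.

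HIST1H2BC showed a difference of -1.94 ± 0.17 between E1 and WT (SE; limma adjusted p = 8.91e-08), from a change of 2.02 in WT and 0.09 in E1. HIST1H3D differed by -2.09 ± 0.39 (adjusted p = 0.000478), with 1.44 ± 0.28 in WT and -0.65 ± 0.28 in E1. HIST1H4H differed by -1.90 ± 0.14, HIST1H2BG by -1.89 ± 0.28 and HIST2H2BE by -1.50 ± 0.11. Each rose in WT and none passed in E1. HIST1H3H and HIST1H2AI differed by -1.06 ± 0.23 and -1.05 ± 0.28 with another pattern: they fell in E1 and did not pass in WT. HIST1H1C, the linker gene with the most reads here, differed by -1.05 ± 0.16 (adjusted p = 4.68e-05) while passing in neither line alone. Without the first DMSO library of E1, HIST1H3H (-0.96) and HIST1H2AI (-0.99) were under the size limit, the other 13 passed, and HIST1H1E (1.36) and HIST1H1B (2.03) passed in the other direction, against 9.58% of all tested genes in either direction. In all, 10 of the 15 passed whichever library of the series was left out, and HIST1H1C, HIST1H2BJ, HIST1H4E, HIST1H3H and HIST1H2AI did not.

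In F2 the response differed from WT for 5 members. Of these, 4 had a log2 change below that of WT, HIST3H2A (-1.16 ± 0.31, adjusted p = 0.0107), HIST1H2BC (-1.15 ± 0.17, 5.42e-05), HIST1H2BG (-1.13 ± 0.28) and HIST2H2BE (-1.03 ± 0.11). These are 8.33% against 2.8% of all tested genes. The pseudogene HIST1H2APS4 had one above it (1.23 ± 0.34; 2.08% against 4.76%), and edgeR's test on recovered reads did not call it (adjusted p = 0.0799), nor did DESeq2 (0.2) or limma with no filter on low values (0.0814), and at a pseudocount of 5 it was under the size limit (0.83). HIST1H2BJ, by contrast, rose in both lines, and its difference was 0.17 ± 0.17 (adjusted p = 0.49). HIST1H2BK differed by 0.16 ± 0.10 and HIST1H4H by -0.99 ± 0.14, neither past the limits. HIST1H2BG (-0.98 without the first tazemetostat library of F2) and HIST2H2BE (-0.97 without the second) were then under the size limit, and the other 3 passed whichever library was left out. The members' median difference was 0.06 (all tested genes, 0.02).

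Without drug the member sums of E1 were all above those of WT, and the sums of F2 all below. HIST1H2BK weighed heavily here too, with DMSO group means of 4402 (E1), 2833 (WT) and 1901 (F2). The sums alone therefore do not show a shift of the whole set. In E1, 2 members were higher and none lower, 4.17% against 2.5% of all tested genes higher and 0% against 2.74% lower, with a member median of 0.26 (all, -0.01). Unadjusted, limma had 11 members higher and 1 lower at p under 0.05, and edgeR and DESeq2 called 3 higher and 0 lower. Adjusted and with no size limit, limma had 9 members higher and 0 lower, against 1876 and 1918 of all 17903 tested genes. HIST1H3G measured 20.1, 17.9 and 15.1 in WT and 41.1, 36.7 and 45.8 in E1 (1.18 ± 0.18, limma adjusted p = 9.06e-05). HIST1H4I measured 33.2, 24.5 and 27.4 and 47.3, 73.4 and 74.0 (1.15 ± 0.35, 0.0235). Neither gene overlapped between the lines, and both passed without the first DMSO library of E1 (1.17 and 1.36, 2 members against 5.08% of all tested genes in either direction). HIST1H3G passed whichever library was left out. HIST1H4I missed the threshold without the second (adjusted p = 0.0737) or the third (0.0589) DMSO library of E1, and without the second (0.0827) or the third (0.061) of WT.

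In F2, 4 members were lower than in WT under DMSO and none higher, 8.33% against 2.09% of all tested genes lower and 0% against 0.927% higher. At p under 0.05 with no adjustment limma had 15 members lower and 3 higher, and edgeR and DESeq2 also called 4 lower and 0 higher. Adjusted and with no size limit, limma had 14 members lower and 0 higher, against 1934 and 1285 of all 17903 tested genes. The median was -0.05 (all, -0.01), and -0.44 over the 27 members with a mean of at least 20. HIST1H2AI measured 27.7, 24.9 and 36.4 in F2 against 75.1, 69.7 and 86.1 in WT (-1.36 ± 0.20, adjusted p = 8.6e-05). HIST1H4H measured 117, 90.2 and 114 (-1.23 ± 0.10), and HIST1H3D (-1.23 ± 0.28) and HIST1H2BC (-1.15 ± 0.12) were also lower. All 4 were separate from WT. HIST1H2BK stood at 1876, 1937 and 1891 in F2, below every WT library (-0.58 ± 0.07), and at 4535, 4844 and 3825 in E1, above every WT library (0.63 ± 0.07). Neither difference reached the size limit.

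With tazemetostat present the clones lay below WT in most of the genes that had risen there. Those genes were called for high values in the same WT tazemetostat libraries, so a lower clone value is partly set by that choice. The counts that follow are over all 48 members. E1 was lower than WT in 8 members (16.7% against 6.61% of all tested genes) and higher in 5 (10.4% against 5.91%), with a median of -0.12. It was -0.75 over the 27 members with a mean of at least 20, and 0.04 over all 48 without the third tazemetostat library of WT. HIST1H2BG (-1.79 ± 0.20) and HIST1H2BC (-1.79 ± 0.12) were lowest in E1, followed by HIST2H2BE, HIST1H4H, HIST1H2BD, HIST1H3D, HIST3H2A and HIST1H3H. HIST1H1B (2.29 ± 0.60, limma adjusted p = 0.00391) and HIST1H4A (1.46 ± 0.40, 0.00613) were highest, with HIST1H1D, HIST1H4I and HIST1H2BO. The call for HIST1H4A ended without the first tazemetostat library of WT (0.83), and those for HIST1H1D, HIST1H4I and HIST1H2BO without the third (1.07, 0.70 and 0.68). That for HIST1H3H ended without the third tazemetostat library of WT (-0.98) or of E1 (-0.93). Whichever library was left out, 7 of the 8 lower members passed, and of the 5 higher only HIST1H1B. The linker gene HIST1H1B measured 4.93, 0.935 and 2.46 in WT and 10.6 to 22.6 in E1, without overlap. Its E1 DMSO values ranged from 3.90 to 50.9, the highest in its first library, which was also the highest in untailed RNA.

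F2 with tazemetostat was lower than WT in 14 members (29.2% against 5.38% of all tested genes) and higher in 7 (14.6% against 7.91%), with a median of -0.05 (all, 0.01). That median was -0.97 over the 27 members with a mean of at least 20, and 0.10 over all 48 without the third tazemetostat library of WT. HIST1H2BC (-2.30 ± 0.12, adjusted p = 2.95e-11) and HIST1H4H (-2.21 ± 0.10, 7.58e-12) were lowest. HIST1H4H measured 156, 137 and 160.0 in F2 against 714, 696 and 702 in WT, with no overlap. HIST1H1C (-1.19 ± 0.11) was among the 14, as were HIST1H2BG, HIST2H2BE, HIST1H2BD and HIST1H2AC. HIST1H1E (1.97 ± 0.41, 0.00066) and HIST1H1B (1.91 ± 0.60, 0.0128) were highest. HIST1H1E, another linker gene, measured 9.85, 4.68 and 4.93 in WT and 19.4, 30.3 and 33.3 in F2, apart but on few reads, and HIST1H1B missed the threshold without the second tazemetostat library of WT (adjusted p = 0.0724). Of the 21, 13 passed whichever library was left out. The 2 clones share the WT libraries in these comparisons.

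Members were also described by level. Of 27 members with a mean of at least 20, 10 rose and 1 fell in WT (median 0.67), and of 21 members under 20, none rose and 5 fell (median -0.80). The response difference E1 minus WT was lower for 15 of the 27 and for none of the 21. The mean holds the WT tazemetostat libraries, so a rise there helps a gene reach 20. With the mean over the other 15 libraries, a split added after the values were seen, HIST1H3D stands at 19.6 and moves below 20. Then 9 of 25 members rose and 1 fell (median 0.62), against 1 risen and 5 fallen of 23 (-0.58), and the response difference was lower for 14 of the 25 and 1 of the 23. By the mean of all 18, tazemetostat raised 4 of the 27 and 1 of the 21 in F2. Counts are low in those 21 genes, which limits what their values can show. Of all tested genes at any level, 15.6% rose and 7.19% fell in WT, 14.5% rose in F2, and 5.4% were lower in the response difference E1 minus WT. All tested genes were not divided by level, so the split cannot be called particular to histone genes.

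Annotated 3′ ends divided the members in a similar way. A GENCODE 29 transcript of 18 members ended with AATAAA or ATTAAA in its last 50 bases, and that of 30 did not, a split chosen after values were seen and not tested. Among the 18, tazemetostat in WT raised 7 and lowered none (median 0.72). Among the 30 it raised 3 and lowered 6 (median -0.20). The difference E1 minus WT was lower for 9 of the 18 and 6 of the 30. Of all tested genes, 15.6% rose and 7.19% fell in WT and 5.4% were lower in E1 minus WT, and they were not divided by their annotated ends. The 18 also had more reads, with a median mean of 117 normalized counts against 12.2, so level and annotation cannot be told apart here. HIST1H2BK and HIST1H1C, with the most reads, fall among the 30 because their models are short.

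**Figure D3:**
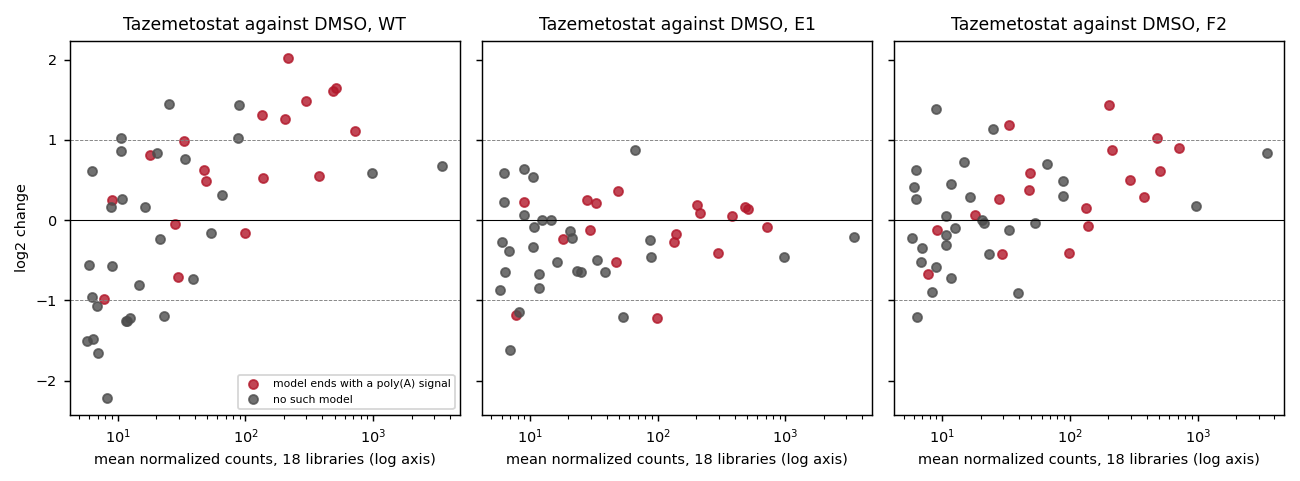
Log2 change under tazemetostat (vertical axis) against mean normalized counts over 18 libraries (horizontal log axis) in WT, E1 and F2, with 1 point per gene, red for the 18 genes with an annotated poly(A) signal at the transcript's end and grey for the other 30; dashed lines mark changes of 1 and -1. In WT 10 of the points above 1 passed the test and HIST1H2AK (1.02) did not, while in E1 no gene passed above 1; the mean on the horizontal axis includes the WT tazemetostat libraries.

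The summed level of the 18 genes was highest in WT with tazemetostat. It was 2817, 2668 and 2738 in WT under DMSO and 6663, 6556 and 6259.6 under tazemetostat. In E1 it was 3275, 3514 and 3165 and 3043, 3179 and 3391, and in F2 1853, 1817 and 1821 and 2896, 2611 and 2894. The groups were apart in WT and F2 and overlapped in E1. Low members without such an end (mean under 20) summed to 335 in the first DMSO library of E1 and to between 106 and 199 in the other 17. The untailed RNAs were highest in that same library, and their part in the low members' values was not tested. In WT the untailed RNAs summed to between 706 and 995 under DMSO and between 621 and 990 under tazemetostat, with overlap.

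**Figure D4:**
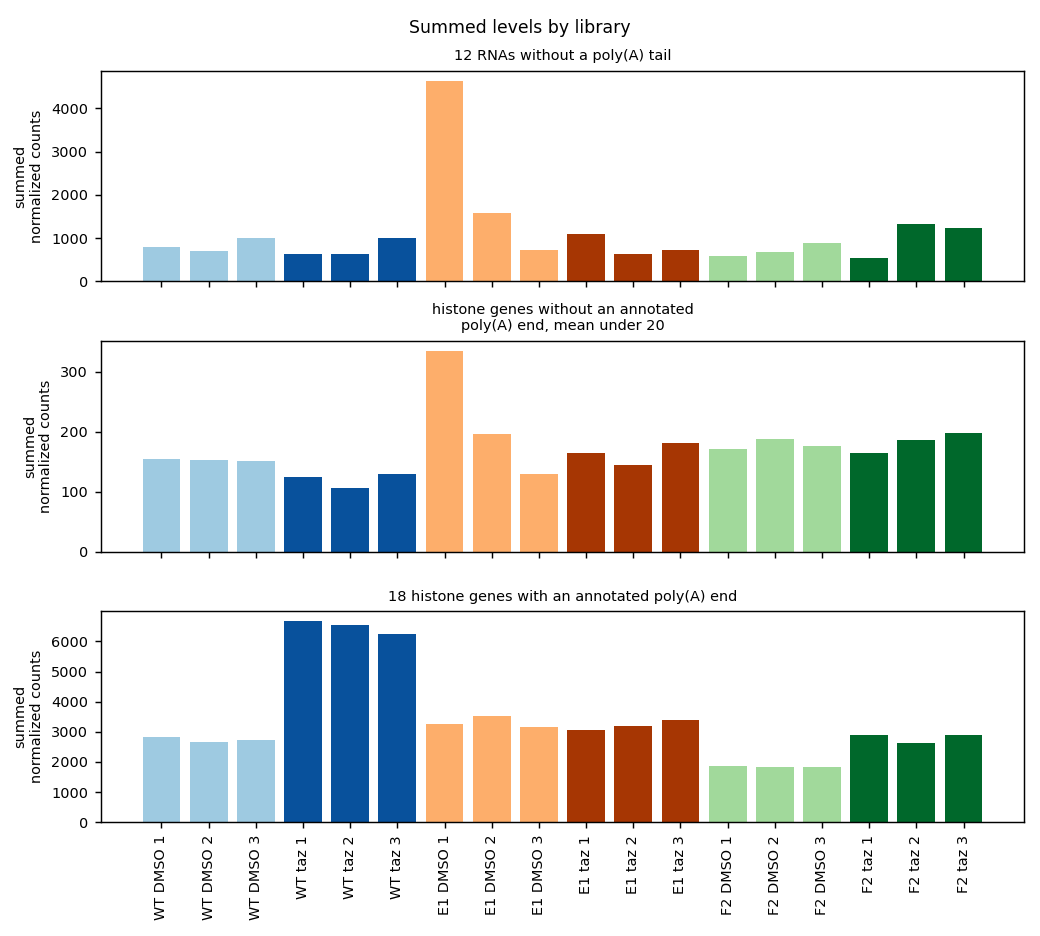
Summed normalized counts per library (bars from 0, 3 per group in the order of the replicates; taz is tazemetostat) of 12 RNAs without a poly(A) tail, of low histone genes without an annotated poly(A) end, and of 18 histone genes with one. The first DMSO library of E1 is highest in the upper panels (4637 and 335), and the 3 WT tazemetostat libraries are highest in the lowest panel.

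In 9 cases, neighbouring members are read away from each other from starts 194 to 248 bases apart. In 2 of these pairs both genes rose in WT, the H2B and H2A genes HIST1H2BC (2.02) with HIST1H2AC (1.11), and HIST1H2BG (1.43) with HIST1H2AE (1.02). In 4 pairs 1 gene rose and the other did not pass, and in a further pair HIST1H2BM fell (-1.26) while HIST1H2AJ did not pass (-1.50). Of all tested genes taken singly, 15.6% rose and 7.19% fell in WT, and divergent pairs among them were not counted. In E1 none of the paired genes rose and HIST1H2AI fell (-1.21), where 12.4% of all tested genes rose and 4.01% fell. HIST2H2BE rose by 1.64 ± 0.08 while its neighbour HIST2H2AC, at 5.24, 4.71 and 7.57 and then 3.94, 2.81 and 1.23 normalized counts, had a log2 change of -0.95 ± 0.63 that did not pass. The log2 changes were 1.25 for HIST1H2BJ and 0.55 for HIST1H2AG, 1.31 for HIST3H2A and 0.86 for HIST3H2BB, and 1.44 for HIST1H3D and 0.76 for HIST1H2BF, with the first of each pair past the threshold. In F2 the gap within the HIST1H2BJ pair was wider, at 1.43 ± 0.12 and 0.28 ± 0.08. Differences within pairs were not tested.

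**Figure D5:**
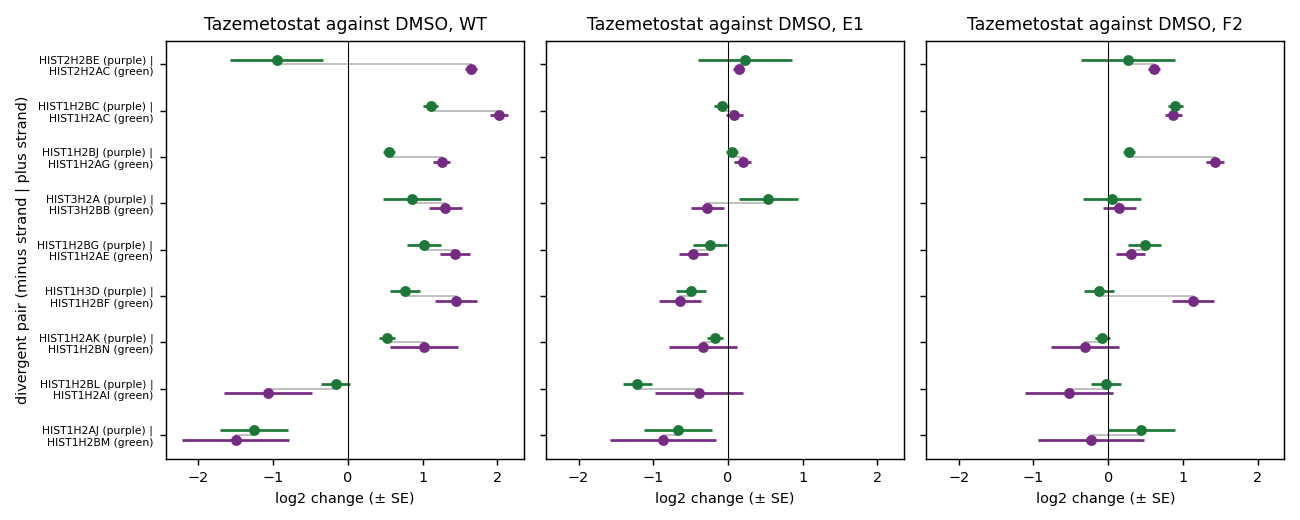
Log2 change under tazemetostat (horizontal axis, ± SE from the fit) in WT, E1 and F2 for 9 pairs of divergent histone genes, purple for the gene on the minus strand and green for that on the plus strand. In WT, HIST2H2BE lies at 1.64 and HIST2H2AC at -0.95, while both genes of the HIST1H2BC pair lie above 1.

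Genes that serve DNA copying and histone production were taken as lists by function. Of 14 S phase markers, genes of DNA replication such as CCNA2 (-1.95), MCM6 (-1.88), TYMS (-1.64) and PCNA (-1.46), 12 fell in WT under tazemetostat (of all tested genes, 7.19% fell) and none passed in either clone (4.01% fell in E1 and 3.88% in F2). Without adjustment or a size limit, limma had 8 of them lower in E1 and 10 in F2 at p under 0.05, and edgeR and DESeq2 called 0 in either. The response itself was higher than in WT for 9 of the 14 in E1 and 7 in F2, against 4.73% and 4.76% of all tested genes. Their list sum in WT went from 83580.4, 81952 and 74049.5 to 31332, 32786 and 29105, without overlap. In E1 it went from 92599, 100055 and 92939 to 78493, 88391 and 82777 and in F2 from 94934, 93531 and 85960.0 to 72641, 70074 and 70623, lower too but with single genes under the size limit. In WT these markers fell in the libraries in which 10 histone genes rose, and their part in the histone values was not tested. Of 17 factors of histone mRNA synthesis and processing, ERI1, an exonuclease that trims histone mRNA (-1.50), and CASP8AP2, a histone locus protein (-1.03), fell in WT and none passed in the clones (5 lower in each clone at an unadjusted limma p under 0.05, and 0 called by edgeR and DESeq2). The 2 of 17 are near the 7.19% of all tested genes that fell in WT. At an unadjusted limma p under 0.05, 11 of the 17 were lower in WT and 2 higher, and edgeR called 3 lower and DESeq2 2. POU2F1, named above for the octamer, went from a mean of 3561 to 1805 in WT, 2981 to 2217 in E1 and 3604 to 2555 in F2. It did not pass, although its groups were apart in all 3 lines and its WT mean under tazemetostat was 0.507 of that under DMSO. LSM10, an Sm-like protein of the particle that cuts histone mRNA, was higher in WT but under the size limit (0.77 ± 0.11). NPAT (-0.76 ± 0.09) and SLBP (-0.46 ± 0.08) were lower in WT, under the size limit.

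Of 17 histone chaperones and their partners tested, 5 fell in WT, against 7.19% of all tested genes, and none in the clones, against 4.01% and 3.88% (5 lower in E1 and 9 in F2 at an unadjusted limma p under 0.05, and 0 called by edgeR and DESeq2): HAT1, a histone acetyltransferase (-1.70), NASP (-1.29), CHAF1B (-1.29), CHAF1A (-1.25) and HJURP (-1.08). CHAF1A and CHAF1B are subunits of the complex that deposits histones on copied DNA. Of 11 histone genes outside the HIST clusters, H2AFY2 (-1.72), CENPA, the centromeric H3 (-1.25), and H2AFZ, a replacement H2A (-1.05), fell in WT (3 of 11, against the same 7.19%). H1F0, a linker histone of resting cells, rose in E1 (1.08), with log2 changes of 0.80 in F2 and 0.14 in WT, both under the size limit. In WT the log2 changes of H3F3B (0.06) and H2AFX (-0.63) were not past the limits. EZH2, the drug's target, fell by 1.50 in WT on the log2 scale and did not pass in the clones.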

How the data were processed

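RNA was measured in 18 libraries: 3 lines (WT, E1, F2), each with tazemetostat or DMSO, 3 biological replicates a group. Per the labels, poly(A)-selected RNA was made into stranded paired-end libraries. Per the submitters' processing notes, tools included Trim Galore 0.4.4, STAR 2.6.0a, HTSeq and DESeq2, with build hg19; the annotation and the strand setting of the counting are not given in the sources used here. The table deposited by the authors holds a signal per gene, counts divided by size factors, in which every value came out as whole reads within 1e-06 once each library's step was recovered.

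Rows with a mean of at least 5 (17903) were tested with limma 3.58.1 (R 4.3.3) on log2(value + 1), with all 6 groups in 1 fit, no covariates and Benjamini-Hochberg adjustment over all tested rows; adjusted p values in the text are limma's unless another tool is named. A call needed a log2 change of 1 or more in size together with an adjusted p below 0.05. With 3 libraries against 3, an exact permutation test cannot go below p = 0.1, so it was not used. Alternatives were edgeR 4.0.16 and DESeq2 1.42.0 on recovered reads, other pseudocounts, filters and scaling, fits without a library, and the replicate number as a block. The fit was tested on simulated data. Members and lists were chosen with earlier results of these data known. Named genes are the 2 members with the highest mean in each family, the 2 largest rises and 2 largest falls called in each comparison, those next to the floor, fixed genes of the side lists with at most 4 called members each, and the label checks; others were named after their values were seen. Transcript ends are from GENCODE 29 and promoters from RefSeq on GRCh38.p14, another build than the files'.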

Additional observations from a re-analysis of the deposited data

Results flagged for a closer look

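The response to tazemetostat differed between lines by a direct test, limma's interaction term over all tested genes. E1 differed from WT in 15 members, all lower, among them HIST1H3D (-2.09) and HIST1H2BC (-1.94). These are 31.2% of members against 5.4% of all tested genes lower, and 0% against 4.73% higher. F2 differed from WT in 5 members, including HIST3H2A (-1.16) and HIST1H2BC (-1.15), both lower, and the pseudogene HIST1H2APS4 (1.23), higher. For F2, 8.33% of members were lower against 2.8% of all tested genes. The share higher, 2.08%, was below the 4.76% of all tested genes. For HIST1H2APS4 the call was lost with edgeR (adjusted p = 0.0799), with DESeq2 (0.2), with no filter on low values (limma, 0.0814) and at a pseudocount of 5 (0.83, under the size limit). Both clones were set against the same WT libraries. Groups of 3 libraries were too small for the test of single outlying libraries.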

How the results depend on the processing

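Of 53 results for single named genes, alternatives gave 536 values on the same side of the threshold, 21 weaker, 16 stronger and 4 of opposite sign, the last all in E1 under tazemetostat: HIST1H1E at a pseudocount of 0.5 (0.0035) and without the first DMSO library (0.5539), HIST1H2AC without the second (0.0177) and HIST1H2AG with libraries scaled to the same total (-0.0138). The cause of these 4 sign changes was not tested. All 16 stronger values came from dropping the size limit in the same fit, a setting that could give no weaker value. Its 37 values on the same side were thus no separate check.

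Without a limit on size, tazemetostat gave 28 called members for WT, 11 for E1 and 15 for F2, with 9 for E1 and 14 for F2 against WT in DMSO, 25 for E1 against WT under tazemetostat and 9 for the response of F2. Of all 17903 tested genes, tazemetostat then gave 6056 higher and 4929 lower in WT, 4739 and 3275 in E1, and 5129 and 3831 in F2. Against WT in DMSO they were 1876 and 1918 for E1, and 1285 and 1934 for F2. For E1 against WT under tazemetostat they were 4186 and 4540, and for the response of F2 2245 and 2156. For the other settings of this paragraph no share of all tested genes was computed. A pseudocount of 5 gave 10 called members for WT, 2 for E1 and 3 for F2. In E1 under tazemetostat they were 2 with a filter at a mean of 10, 2 with no filter, 2 among members with a mean of at least 20, 3 with only those groups in the fit and 3 with DESeq2. With only those groups in the fit, E1 against WT in DMSO gave 1, and members with a mean of at least 20 gave 13 for F2 against WT under tazemetostat.

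With a filter at a mean of 10, and then for members with a mean of at least 20, fewer low genes enter the members' median. It was 0.6054 and 0.6749 in WT under tazemetostat, -0.6556 and -0.7547 for E1 and -0.6313 and -0.9738 for F2 against WT under tazemetostat, -0.9258 and -1.0475 for the response of E1, and -0.2482 and -0.2549 for that of F2. For F2 against WT in DMSO the second was -0.4430.

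Leaving out 1 library at a time, the members called under tazemetostat ranged from 14 to 17 in WT, 2 to 5 in E1 and 4 to 6 in F2. They were 3 in E1 without its first or second tazemetostat or its second DMSO library. Against WT in DMSO they ranged from 1 (without the second DMSO library of E1) to 3 (without the third) for E1 and stayed at 4 for F2. Against WT under tazemetostat they ranged from 10 to 16 for E1 and 17 to 23 for F2, and for the responses from 12 to 16 and from 4 to 7. Medians ranged from 0.1726 to 0.4215 in WT, -0.4413 to -0.0608 in E1 and 0.0710 to 0.1863 in F2, from 0.1363 to 0.4900 and -0.0924 to 0.0472 in DMSO, from -0.2720 to 0.0425 and -0.2341 to 0.0992 under tazemetostat, and from -0.6994 to -0.2294 and -0.0788 to 0.0929 for the responses, E1 before F2.

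Scaling every library to the same total moved the median of all genes in WT from 0.03 to -0.12, with 8 members higher and 7 lower. Of all genes called, 70.9% in place of 59.5% were then higher in F2 against WT under tazemetostat (members 9 higher, 12 lower), and 73.8% in place of 62.9% for the response of F2 (members 3 and 3). The response of E1 then held 11 lower members and none higher. Without a size limit, 55.1% in place of 68.5% of all calls in WT were higher, 59.1% in place of 75.5% in E1 and 57.2% in place of 78.9% in F2.

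Same-numbered replicates deviated together weakly (correlations from -0.164 to 0.326). The labels state no pairing of replicate numbers, and weak correlations with 3 libraries a group cannot show that there was none. With the replicate block, 15 members were called in WT in place of 16, and the counts of the other comparisons were as without it. Depth limits the members under a mean of 20, where few reads decide a value.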
